A study of Schizosaccharomyces pombe with 78 samples.

Results

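The fission yeast contractile ring is a belt of actin filaments and myosin that forms at the cell middle in mitosis and constricts as the septum is built behind it. Nodes placed by the anillin-like protein Mid1 recruit the myosin motor, its light chains, the scaffold Rng2 and the formin Cdc12, and the F-BAR proteins Cdc15 and Imp2 link the ring to the membrane. Transcripts of part of this machinery are known to rise in mitosis, under forkhead and MADS-box factors that bind the pombe cell cycle box (PCB). The transcripts of 10 ring genes were followed here. They were chosen by name as components of the ring, from 12683 features in the table.

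The membrane-linked members were *cdc15* (SPAC20G8.05c) and *imp2* (SPBC11C11.02). The motor was represented by the heavy chains *myo2* (SPCC645.05c) and *myo3* (SPAC4A8.05c, annotated as *myp2*), the essential light chain *cdc4* (SPAP8A3.08) and the regulatory light chain *rlc1* (SPAC926.03). The node scaffolds were *mid1* (SPCC4B3.15) and the IQGAP protein *rng2* (SPAC4F8.13c). The filament itself was represented by the formin *cdc12* (SPAC1F5.04c) and the tropomyosin *cdc8* (SPAC27F1.02c). Genes *cdc15*, *imp2*, *cdc4* and *cdc8* have 4, 4, 5 and 2 annotated exons, and the other 6 have 1.

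The study asked how phosphorylation of Nrm1, a corepressor of the G1/S transcription complex MBF, shapes transcription through the cell cycle. All strains carried *cdc25-22*, a temperature-sensitive allele that holds cells at the end of G2, and an HA-tagged *nrm1* allele. This was *nrm1-HA* in Nrm1, *nrm1-SA-HA* in Nrm1-SA, where phosphorylation sites cannot be modified, and *nrm1-SD-HA* in Nrm1-SD, where they are replaced by phosphomimetic residues. Cultures were sampled in asynchronous growth (AS) at 25 °C and, after 4 h at 36 °C, every 20 min from 0 to 220 min after return to 25 °C. There were 2 replicates of each of the 39 conditions, 78 polyA libraries in all, and every strain was represented by a single genotype in a single synchronization regime. Libraries of a strain with the same replicate number are called a culture below. The labels do not say that they came from the same culture.

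The stretches before 4 of the genes are shown because they held the letters of both mitotic elements searched for. The forkhead letters were GTAAACA and the PCB letters GCAACG, read on both strands from 250 bases before to 50 bases after each annotated start. Genes *cdc15*, *myo3*, *imp2* and *cdc4* had both, and the other 6 ring genes had neither. Among 5123 protein-coding promoters, 16.5% held the forkhead letters, 8.63% the PCB letters and 1.64% both. The 100 bases before each start follow, 5′ to 3′ in the direction of the gene, with these letters or their reverse complements (TGTTTAC for the forkhead letters and CGTTGC for the PCB letters) in capitals. Sequences and positions are from RefSeq, build ASM294v3. They lie at I:1402937-1403036 (minus strand) for *cdc15*, I:2553704-2553803 (minus strand) for *myo3*, II:3347800-3347899 (plus strand) for *imp2* and I:5329088-5329187 (plus strand) for *cdc4*.
cdc15: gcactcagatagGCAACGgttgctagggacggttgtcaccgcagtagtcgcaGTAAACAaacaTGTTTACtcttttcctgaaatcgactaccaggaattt
myo3: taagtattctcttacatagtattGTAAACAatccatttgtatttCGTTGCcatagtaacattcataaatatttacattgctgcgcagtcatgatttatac
imp2: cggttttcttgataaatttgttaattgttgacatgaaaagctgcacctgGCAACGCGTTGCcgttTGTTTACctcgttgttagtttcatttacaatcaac
cdc4: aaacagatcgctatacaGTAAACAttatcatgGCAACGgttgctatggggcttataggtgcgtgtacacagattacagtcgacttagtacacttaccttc

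All of these matches began between 88 and 35 bases before the annotated start. The *cdc15* stretch held 2 forkhead matches in opposite orientation. In *imp2* a pair of PCB matches in opposite orientation abutted, and the 12 letters they form also spell ACGCGT, the MluI cell cycle box bound by MBF, which overlaps both. ACGCGT was found before no other ring gene and before 3.24% of promoters. A match is a run of letters and not a measured binding site.

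Libraries held 2685381 to 10469416 reads on annotated features, and the 10 genes were well covered, with 123 reads or more in every library. At 140 min the libraries of both Nrm1-SA cultures were closer to each other than sampling noise allows (chi-square per degree of freedom 0.392, against 1.88 to 18.2 in the other 38 pairs). In the tests over all features their mean was therefore counted as 1 sample. The values given per culture and the exact permutation tests kept these libraries apart, 1 in each Nrm1-SA culture. The edited gene *nrm1* was transcribed in all strains, at 366 to 538 normalized counts in asynchronous cultures, which does not tell the alleles apart. The Nrm1-SD libraries stood apart in *mfm2*, a mating pheromone gene of M cells, with 3.94 to 49.0 normalized counts against 161 to 855 in Nrm1 and 308 to 1326 in Nrm1-SA. Over the time course *mfm2* was lower in Nrm1-SD by a log2 difference of -3.24 and *mfm1*, another M pheromone gene, by -0.73, while *map3*, a receptor gene of P cells, was higher by 0.92. The strain list of the study gives all of these strains as h-, the mating type of M cells, and the libraries labelled Nrm1-SD go against that in these genes. In Nrm1-SD, the part of such a strain difference cannot be told apart from that of the *nrm1* allele. Each ring gene overlaps an annotated gene on the other strand, and the strand setting of the count is not stated. These partners stood at 10.2% of the ring gene or less, except *paa1*, which overlaps *cdc4* over 962 bases at 147% of its level, and *nse3*, which overlaps *myo2* over 144 bases at 61.7%. The *cdc4* values are therefore the least certain of the 10.

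Per kilobase of annotated transcript, the ring genes differed widely in asynchronous Nrm1 cells. Tropomyosin *cdc8* was the most abundant, at 2095 and 2447 normalized counts per kb in the 2 replicates. The light chain *cdc4* followed at 563 and 585, *mid1* at 397 and 378, *imp2* at 314 and 300, *rlc1* at 272 and 233, and *cdc15* at 191 and 221. The lowest were the long genes *myo2* at 133 and 138, *cdc12* at 117 and 117, *rng2* at 113 and 109, and *myo3* at 99.1 and 103. In Nrm1 no neighbours in this order overlapped between replicates. The mutants kept the order of the means, with overlap of *imp2* and *rlc1* in Nrm1-SA and of *cdc12* and *rng2* in Nrm1-SD. The light chains were thus more abundant per length than either heavy chain, and *cdc15* passed from 76.2 to 598 per kb over the Nrm1 time course.

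**Figure D1:**
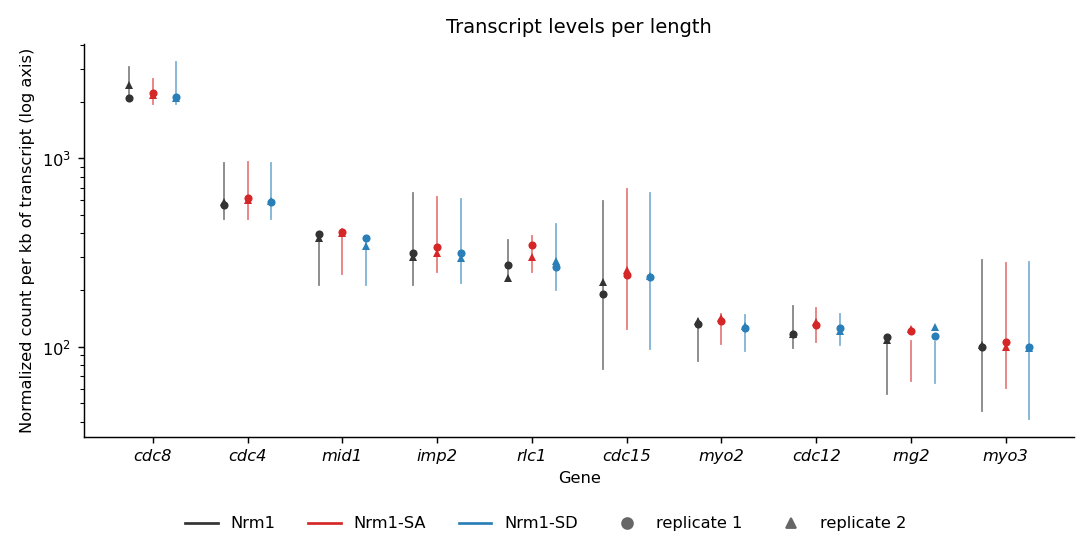
Asynchronous level of each ring gene in normalized counts per kb of annotated transcript (log axis). Points are replicates, colours are strains and vertical lines span the single time-course libraries. *cdc8* stands highest and *myo3* lowest in every strain, and the lines are longest for *cdc15*, *myo3* and *imp2*.

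After release of Nrm1 cells, transcripts of *cdc15*, *myo3* and *imp2* rose and fell in each of the 2 cycles covered, and those of *cdc4* did so less steeply. In Nrm1, *cdc15* stood at 666 and 665 normalized counts at 0 min, 730 and 861 at 20 min, 1190 and 1127 at 40 min, and 2050 and 2051 at 60 min. It then dropped to 875 and 788 at 80 min, 349 and 346 at 100 min, and 297 and 261 at 120 min. The second rise took it through 344 and 369 at 140 min and 841 and 887 at 160 min to 1721 and 1661 at 180 min, before 1365 and 1521 at 200 min and 723 and 689 at 220 min. In bulk cultures fewer cells at a stage and less RNA per cell cannot be told apart. The replicates lay close together at every time, and the peaks and the trough between them did not overlap. The first peak was 6.91 and 7.85 times the trough in the 2 cultures, and the second 5.80 and 6.36 times.

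The heavy chain *myo3* followed almost the same course. It stood at 1852 and 1797 at 60 min, 313 and 293 at 120 min and 1814 and 1718 at 180 min, so that both peaks were about equal in height. The other heavy chain *myo2* did not share it, with 499 and 440 at 60 min, 607 and 573 at 120 min and 686 and 576 at 180 min. For the F-BAR gene *imp2* the wave was lower, with 1485 and 1537 at 60 min, 1267 and 1206 at 80 min, 502 and 509 at 140 min and 1370 and 1482 at 200 min. The light chain *cdc4* was later, with 1272 and 1271 at 80 min, 811 and 798 at 140 min and 1448 and 1525 at 200 min. The first *imp2* peak thus fell in the same sample as those of *cdc15* and *myo3*, and its second peak, like both *cdc4* peaks, fell in the next.

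**Figure D2:**
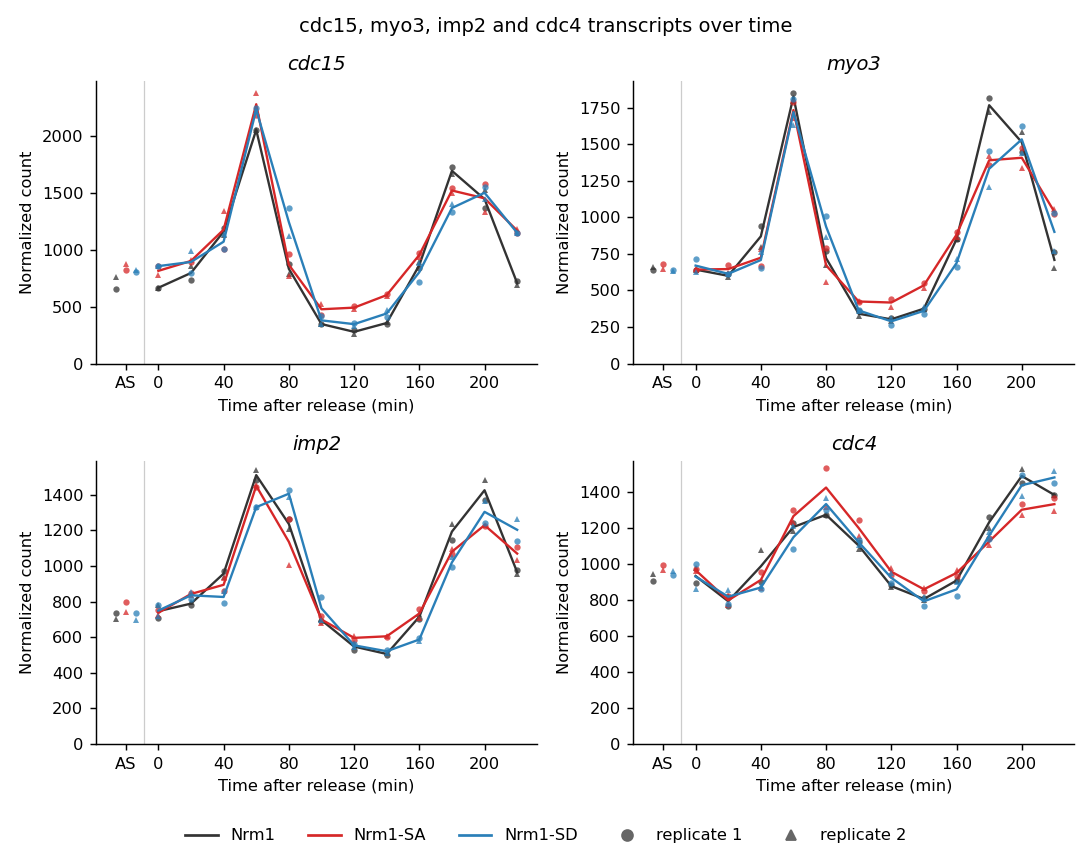
Normalized counts of *cdc15*, *myo3*, *imp2* and *cdc4* in asynchronous cultures (AS) and from 0 to 220 min after release; points are replicates, lines join the means, colours are strains. Each gene shows 2 peaks in Nrm1, while the mean of *cdc4* in both mutants is still rising at 220 min, the last time. Nrm1-SA stays higher than Nrm1 from 100 to 140 min for *cdc15* and *myo3*, and both mutants stand above Nrm1 at 220 min for *cdc15*.

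A wave with a period of 120 min and a linear trend was fitted to each strain by limma, and was called at an adjusted p below 0.1 with a peak-to-trough difference of at least 1 on the log2 scale. In Nrm1 it was called for 3 of the 10 ring genes, beside 8.29% of all 7431 features tested. The peak-to-trough difference was 2.18 for *cdc15* (adjusted p = 4.37e-08), 2.02 for *myo3* (adjusted p = 1.15e-07) and 1.36 for *imp2* (adjusted p = 1.67e-10). These ranked 87, 110 and 293 among all features tested. The fit placed the peak at 61.5 min for *cdc15*, 62.0 min for *myo3*, 70.9 min for *imp2* and 79.4 min for *cdc4*. For *cdc4* the difference was 0.75, with an adjusted p of 3.55e-14 but below the size required. The median of the 10 genes was 0.31, beside 0.36 over all features.

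The remaining 6 genes moved little with the cycle, with fitted differences of 0.36 for *rlc1*, 0.26 for *rng2*, 0.25 for *myo2*, 0.22 for *cdc12*, 0.18 for *cdc8* and 0.17 for *mid1*. Without the minimum size, 9 of the 10 passed in Nrm1, all but *mid1*. The share of all features passing this looser call is not given here, so the count does not set the ring genes apart. In Nrm1-SA the wave was called for the same 3 genes, beside 3.84% of all features, and in Nrm1-SD for the same 3, beside 7.75%. In Nrm1-SA the call of *imp2* rested on a difference of 1.00, at the required minimum, and it was not made by edgeR, by DESeq2 or without Nrm1-SA replicate 1.

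**Figure D3:**
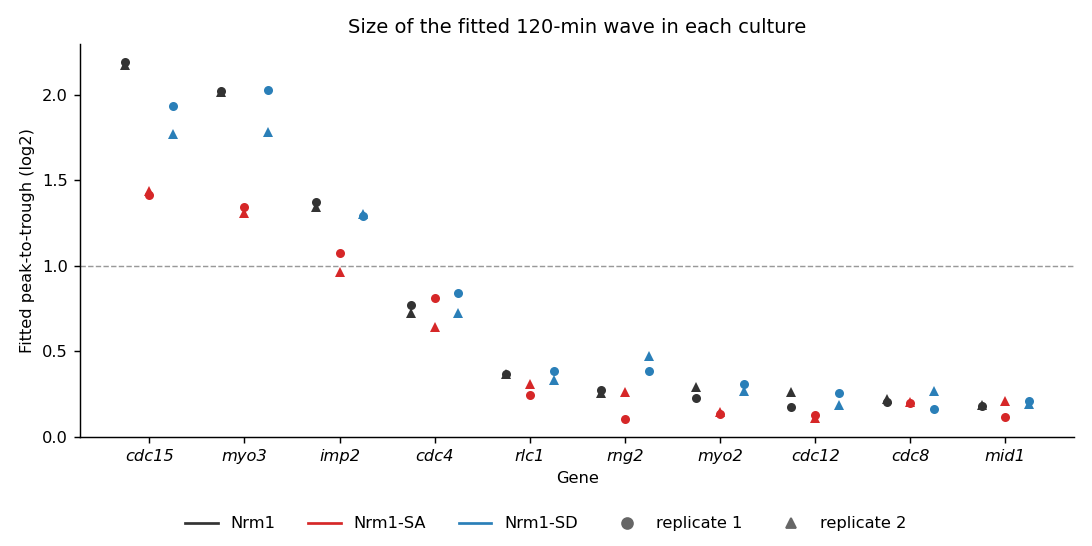
Fitted peak-to-trough difference (log2) of the 120-min wave in each culture, by gene and strain; the dashed line marks the minimum of 1. For *cdc15*, *myo3* and *imp2* both Nrm1-SA cultures lie below both Nrm1 cultures, and the other 7 genes stay below the line in every culture. Each Nrm1-SA culture holds 1 of the near-identical 140 min libraries.

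The 4 genes with forkhead and PCB letters were those with the 4 largest waves of the 10. Genes with both sets of letters numbered 84 in the genome. Of the 82 that were tested, 17 had a called wave in Nrm1, or 20.7%, against 10.0% of those with forkhead letters alone, 6.86% with PCB letters alone and 5.71% with neither. Most genes with both letters thus had no called wave, and their median peak-to-trough difference was 0.36, beside 0.32 for genes with neither.

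Over the 39 condition means, which share libraries and the common time course, *cdc15* and *myo3* had a correlation of 0.965 across conditions, as a description. The value was 0.853 for *imp2* and *myo3*, 0.849 for *cdc15* and *imp2*, and 0.788 for *imp2* and *cdc4*. The 2 heavy chains *myo2* and *myo3* stood at -0.163, and the 2 light chains *cdc4* and *rlc1* at 0.662. Of 4716 protein-coding genes outside the 10, the most alike to *cdc15* were *fkh2* (0.979), which encodes a forkhead factor, the paxillin-like ring gene *pxl1* (0.967), SPBC19G7.04 (0.958), *gas1* (0.949), a glucan-remodelling enzyme, and *spo12* (0.943). The most alike to *myo3* were *fkh2* (0.983), *etd1* (0.961), which acts in septation initiation, *pxl1* (0.959), the kinesin gene *klp5* (0.958) and *spo12* (0.950).

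The block itself left most ring transcripts where they were in growing cells. Compared with asynchronous Nrm1 cells, 1 of the 10 was higher at 0 min, beside 30.7% of all features, and 2 were lower, beside 28.9%. The scaffold *rng2* fell from 563 and 543 to 398 and 343 (log2 change -0.58 ± 0.12, SE, adjusted p = 6.47e-05) and *mid1* from 1238 and 1179 to 929 and 972 (-0.35 ± 0.08, adjusted p = 0.000167). Tropomyosin *cdc8* went from 1948 and 2276 to 2300 and 2854 (0.28 ± 0.09, adjusted p = 0.00767), with the libraries only just apart. Without Nrm1 replicate 2 the *cdc8* change was 0.24 with an adjusted p of 0.13. The 8 heat shock genes of a fixed list (*hsp16*, *hsp104*, *ssa2* and others) summed to 79531 and 83561 in asynchronous Nrm1 libraries, 127382 and 135029 at 0 min and 9819 to 10818 at 100 and 120 min, and 7 of the 8 were higher at 0 min than in asynchronous cells. The asynchronous libraries stood well above the later release in these genes, and the part of heat shock in the changes above was not tested.

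The next comparison set the mean of 20 and 40 min, when cells enter mitosis from the block, against the mean of 100 and 120 min in Nrm1. Of the ring genes 3 were higher in the early window, beside 30.0% of all features, and 5 were lower, beside 31.4%. This window also directly follows the return from 36 °C. Of the 8 heat shock genes 6 were higher in it and 1 lower, with a median of 1.07. The part of recovery from heat in the ring gene values was not tested. Gene *cdc15* was higher by 1.62 ± 0.08 on the log2 scale (SE, adjusted p = 4.38e-23), *myo3* by 1.16 ± 0.08 (adjusted p = 1.23e-17) and *imp2* by 0.49 ± 0.05 (adjusted p = 1.86e-11). The largest drop was that of the node organizer *mid1*, with 665 and 686 at 20 min and 836 and 691 at 40 min against 914 and 918 at 100 min and 1234 and 1136 at 120 min (-0.54 ± 0.05, adjusted p = 5.02e-12). Smaller negative values were those of *rng2* (-0.27), *cdc12* (-0.25), *myo2* (-0.20) and *cdc4* (-0.16), and *rlc1* (-0.08) and *cdc8* (-0.12) did not pass. With 140 and 160 min of the second cycle as the early window *cdc15* and *myo3* stayed higher, but *imp2* was at -0.038 (adjusted p = 0.62), *mid1* at 0.17 (adjusted p = 0.0138), *cdc12* at 0.088 and *rng2* at 0.15, the last 2 without a call. Without Nrm1 replicate 2 *rng2* did not pass, at -0.20 with an adjusted p of 0.17. For *cdc4* the value was -0.05 without Nrm1 replicate 1, and it was 0.15 with 40 and 60 min as the early window.

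**Figure D4:**
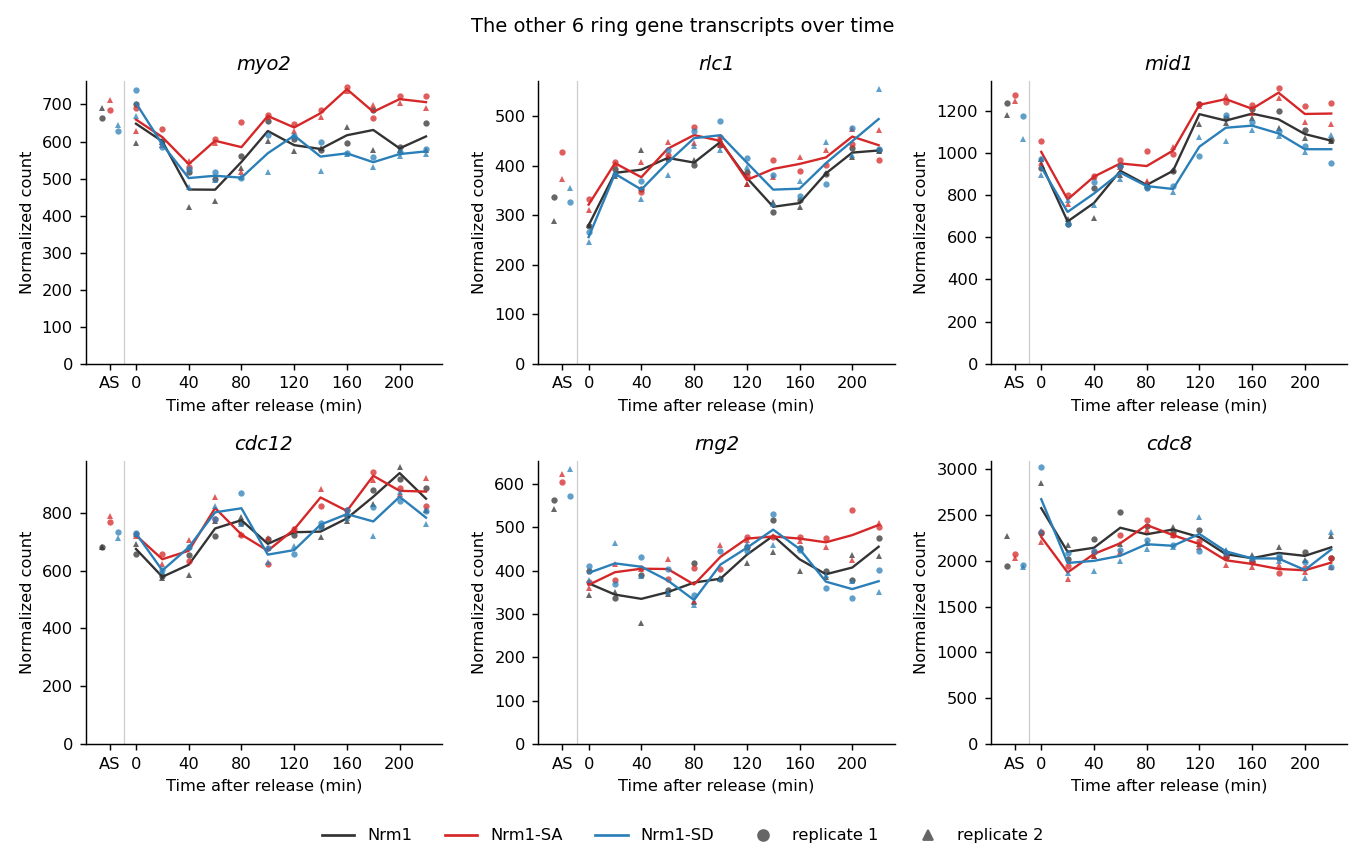
Normalized counts of *myo2*, *rlc1*, *mid1*, *cdc12*, *rng2* and *cdc8* in asynchronous cultures (AS) and from 0 to 220 min after release; points are replicates, lines join the means, colours are strains. *mid1* is lowest at 20 min in every strain and *rng2* is below its asynchronous level at all times, and Nrm1-SA means of *myo2* lie above those of Nrm1 at all 12 times.

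In asynchronous growth the mutants differed little from Nrm1 in ring transcripts. In Nrm1-SA 2 of the 10 were higher, beside 8.75% of all features, and none was lower, beside 5.07%. The light chain *rlc1* stood at 428 and 372 against 336 and 288 (0.36 ± 0.10, adjusted p = 0.0171), and *cdc12* at 768 and 788 against 682 and 683 (0.19 ± 0.07, adjusted p = 0.0748). Both calls were lost when whole cultures were left out, that is all libraries of a strain with 1 replicate number. The *rlc1* call was lost without Nrm1 replicate 2 (difference 0.25) and without Nrm1-SA replicate 1 (0.26). The *cdc12* call was lost without any 1 of the 4 cultures (0.17 to 0.21). It was also not made by edgeR (adjusted p = 0.15) or DESeq2 (adjusted p = 0.19). In Nrm1-SD none of the 10 was called higher, beside 1.55%, or lower, beside 0.848%, by limma, edgeR or DESeq2, and none had an unadjusted p under 0.05.

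At the block (0 min) none of the 10 was called in Nrm1-SA, beside 2.11% of features higher and 2.42% lower, or in Nrm1-SD, beside 1.05% higher and 0.982% lower. By edgeR and DESeq2 none was called either, and 1 gene had an unadjusted p under 0.05 in each mutant. This was *cdc15*, at 853 and 774 in Nrm1-SA and 858 and 852 in Nrm1-SD against 666 and 665 in Nrm1. The differences were 0.29 ± 0.11 (adjusted p = 0.20) and 0.36 ± 0.11 (adjusted p = 0.12), with no overlap between groups.

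Over the time course Nrm1-SA differed from Nrm1 in shape for *cdc15*, *myo3* and *imp2*. The test asked whether the change from 0 min differed between strains at any of the later times, and called 3 of the 10 ring genes, beside 13.9% of all features. The F values were 7.66 for *cdc15* (adjusted p = 1.05e-05), 6.66 for *myo3* (adjusted p = 5.19e-05) and 3.12 for *imp2* (adjusted p = 0.0324). The *cdc15* first peak was not lower in Nrm1-SA, with 2177 and 2373 at 60 min against 2050 and 2051. In the trough *cdc15* was higher, at 428 and 526 at 100 min and 506 and 476 at 120 min, against 349 and 346 and then 297 and 261 in Nrm1. All 4 Nrm1-SA libraries at these times were above all 4 Nrm1 libraries. The difference was not confined to these times. The ratio of the Nrm1-SA to the Nrm1 mean was also 1.69 at 140 min, 0.90 at 180 min and 1.65 at 220 min. At 0 min, the reference of the test, it was already 1.22. The *cdc15* first peak was 5.09 and 4.98 times the trough in the Nrm1-SA cultures, below both Nrm1 values.

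The difference between the early window and the trough was accordingly smaller in Nrm1-SA for 2 of the 10 genes, beside 4.48% of all features, and larger for none, beside 4.35%. For the heat shock genes it was smaller in 4 of 8 and larger in none, and their part was not tested. Among the ring genes the difference was smaller by 0.54 ± 0.11 on the log2 scale for *cdc15* (value -0.54, adjusted p = 0.00143) and by 0.47 ± 0.11 for *myo3* (value -0.47, adjusted p = 0.00678). Without Nrm1 replicate 2 neither passed, at -0.448 with an adjusted p of 0.18 for *cdc15* and -0.47 with 0.14 for *myo3*, and without Nrm1-SA replicate 1 *myo3* had an adjusted p of 0.20. With 140 and 160 min as the early window neither passed, at -0.18 for *cdc15* (adjusted p = 0.69) and -0.11 for *myo3* (adjusted p = 0.86).

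The level at 100 and 120 min and the level at 220 min were compared after the values had been seen. At 100 and 120 min 3 of the 10 genes were higher in Nrm1-SA, beside 11.5% of all features, and none lower, beside 10.2%. The difference was 0.63 ± 0.08 for *cdc15* (adjusted p = 3.49e-08), a ratio of 1.55, and 0.39 ± 0.08 for *myo3* (adjusted p = 0.0003), a ratio of 1.31. For *myo3* the values were 422 and 428 at 100 min and 445 and 390 at 120 min, against 360 and 323 and then 313 and 293. Neither call was lost without any 1 culture or with another tool. The third gene was *cdc4*, at 0.12 ± 0.05 (adjusted p = 0.0968), which did not hold without any of the 4 cultures. For *imp2* the difference was 0.07 ± 0.05 and did not pass, but with 120 and 140 min as the trough it was 0.19 with an adjusted p of 0.0151.

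The second cycle of Nrm1-SA was flatter. In bulk cultures later or less synchronous cells and a changed level per cell cannot be told apart. The paper reports longer combined M/G1 and S phases in both mutants, and the part of cycle timing was not tested here. The Nrm1-SA *cdc15* values were 1542 and 1495 at 180 min, 1572 and 1328 at 200 min and 1150 and 1184 at 220 min, where Nrm1 had returned to 723 and 689. At 220 min *cdc15* retained 73.1% and 79.2% of its second peak in the Nrm1-SA cultures, against 42.0% and 41.5% in Nrm1. There 2 of the 10 genes were higher in Nrm1-SA, beside 9.73% of all features, and none lower, beside 8.92%. The difference was 0.72 ± 0.11 for *cdc15* (adjusted p = 5.1e-06) and 0.55 ± 0.11 for *myo3* (adjusted p = 0.000447), which stood at 1021 and 1054 against 761 and 657. Both were called in every alternative run. The fitted wave of *cdc15* was 1.41 and 1.44 in the Nrm1-SA cultures and 2.19 and 2.18 in Nrm1, that of *myo3* 1.35 and 1.31 against 2.03 and 2.02, and that of *imp2* 1.08 and 0.97 against 1.38 and 1.34. The cultures did not overlap in any of the 3, and the exact permutation test of 2 cultures against 2 gave p = 0.333, the smallest it allows. The near-identical 140 min libraries entered these fits, 1 in each Nrm1-SA culture, so the spread between the Nrm1-SA cultures may be understated. The limma test of the wave itself called none of the 10 between Nrm1-SA and Nrm1, beside 0.498% of all features, nor did edgeR or DESeq2, and none had an unadjusted p under 0.05. Its spread also holds the misfit of the fitted curve to the profile, so a missing call does not show that the waves were equal.

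The mean over the 12 times was higher in Nrm1-SA for 7 of the 10 genes, beside 29.1% of all features, and lower for 1, beside 28.5%. The largest difference was that of *cdc15* (0.28 ± 0.03, adjusted p = 4.46e-10), followed by *myo2* (0.17 ± 0.03, adjusted p = 4.98e-07), *rng2* (0.15), *mid1* (0.12), *rlc1* (0.11), *myo3* (0.09) and *cdc12* (0.06). The lower gene was *cdc8* (-0.08 ± 0.03, adjusted p = 0.0105). Time points of 1 culture counted as independent in this test, so lasting differences between cultures may make these standard errors too small. The *myo2* mean, for example, was 9.23 and 9.12 on the log2 scale in the 2 Nrm1 cultures. For each of these genes the Nrm1-SA and Nrm1 cultures did not overlap, and the exact permutation test gave p = 0.333, the smallest possible. The median of the 10 was 0.10, beside 0.00 over all features. Without single cultures *myo3*, *cdc12* and *cdc8* lost their calls, with adjusted p of 0.16 to 0.37 where they did, and *myo3* also had one of 0.21 without the merged 140 min sample.

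**Figure D5:**
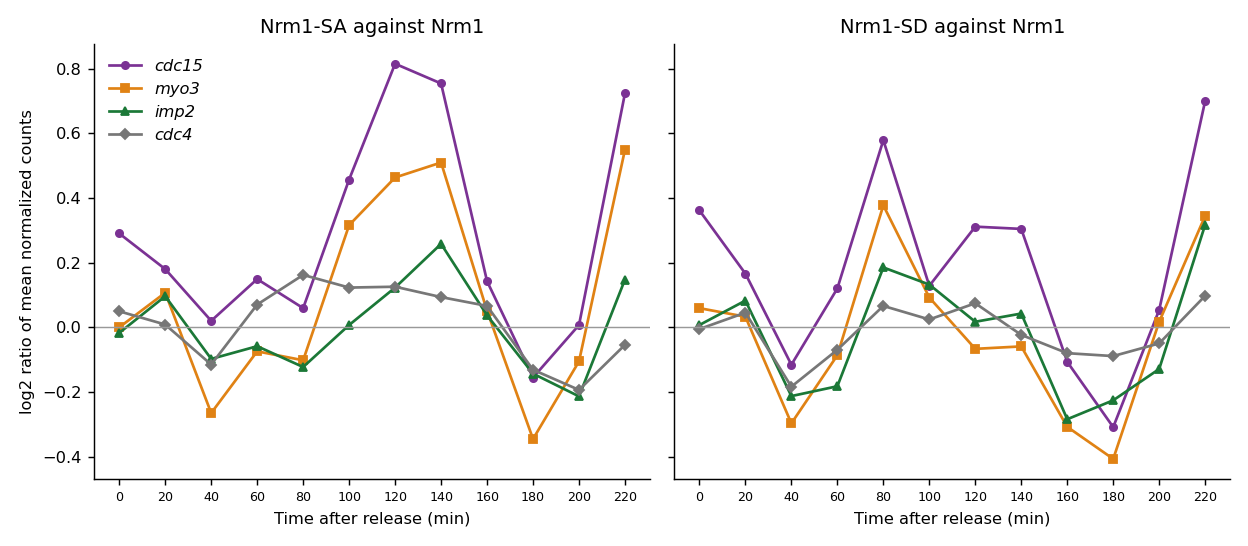
Log2 ratio of the mean normalized count in Nrm1-SA (left) and Nrm1-SD (right) to Nrm1 at each time for *cdc15*, *myo3*, *imp2* and *cdc4*. In Nrm1-SA the *cdc15* and *myo3* ratios are highest from 100 to 140 min and at 220 min, and in Nrm1-SD at 80 min and 220 min, with values below 0 at 160 and 180 min.

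In Nrm1-SD the same 3 genes differed in shape from Nrm1, beside 3.01% of all features. The F values were 6.46 for *cdc15* (adjusted p = 0.000194), 6.33 for *imp2* (adjusted p = 0.000239) and 4.39 for *myo3* (adjusted p = 0.01). None of the 3 was called without Nrm1 replicate 2. The Nrm1-SD and Nrm1-SA comparisons share the Nrm1 libraries, so their common genes are no independent support. The Nrm1-SD values stood highest against Nrm1 at 80 and 220 min. The part of cycle timing or synchrony in these differences was not tested. At 80 min *cdc15* stood at 1365 and 1119 in Nrm1-SD, where Nrm1 was at 875 and 788 and Nrm1-SA at 965 and 769. The first peak of *imp2* fell at 80 min in both Nrm1-SD cultures, with 1425 and 1388, and at 60 min in the other 4. The second *cdc15* peak came at 200 min in both Nrm1-SD cultures, with 1551 and 1446, and at 180 min in both Nrm1 cultures. The fitted peak of *cdc15* was at 68.2 and 62.9 min in Nrm1-SD against 62.1 and 60.9 min in Nrm1, that of *myo3* at 68.6 and 65.2 min against 62.4 and 61.7 min, and that of *imp2* at 77.5 and 75.7 min against 70.8 and 70.9 min. The cultures did not overlap for these genes, and p = 0.333 in the exact permutation test is the smallest possible.

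At 220 min 3 of the 10 genes were higher in Nrm1-SD, beside 2.75% of all features, and none lower, beside 4.35%. The difference was 0.70 ± 0.11 for *cdc15* (adjusted p = 3.8e-05), at 1148 and 1147 against 723 and 689, and was called in every alternative run. For *imp2* it was 0.32 ± 0.07 (adjusted p = 0.00929), at 1143 and 1264 against 979 and 953. For *myo3* it was 0.33 ± 0.11 (adjusted p = 0.0837), at 1030 and 771 against 761 and 657, and with edgeR or DESeq2 *myo3* was not called. Without single cultures *imp2* had an adjusted p of up to 0.20 and *myo3* of up to 0.52. The Nrm1-SD libraries of this time differed from each other: over all features 527 were called, 2647 without Nrm1-SD replicate 1 and 192 without replicate 2. At 100 and 120 min none of the 10 was called higher, beside 1.05%, or lower, beside 1.05%, by limma or DESeq2. By edgeR 1 was, *mid1* at -0.17 with an adjusted p of 0.0761, and 3 of the 10 had an unadjusted p under 0.05 by limma. The early window against the trough differed for none, beside 0.310% of features higher and 0.458% lower, with 2 at an unadjusted p under 0.05 and none by edgeR or DESeq2. With 40 and 60 min as the early window 2 were called, *imp2* at -0.27 and *cdc12* at 0.22. The share of all features called with that window is not given here, so this count does not set the ring genes apart.

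The mean over the time course was higher in Nrm1-SD for 1 gene, *cdc15* (0.18 ± 0.03, adjusted p = 9.11e-05), beside 7.06% of all features, and lower for none, beside 7.78%. Time points of 1 culture again counted as independent. The *cdc15* means of the cultures did not overlap, with p = 0.333 in the exact permutation test, the smallest possible. The wave test called none of the 10 between Nrm1-SD and Nrm1, beside 0.538% of all features, nor did edgeR or DESeq2, and none had an unadjusted p under 0.05. The limit of this test given for Nrm1-SA applies here too.

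Other genes of cytokinesis moved with the ring genes in part. Of 19 other ring and node genes, 4 had a called wave in Nrm1, beside 8.29% of all features, with peak-to-trough differences of 2.37 for *pxl1*, 2.02 for *fhn1*, an eisosome protein gene peaking at 11.6 min, 1.91 for the kinesin gene *klp8* and 1.50 for *fic1*, a partner of Cdc15. Of 21 genes of actin cables and patches and of 4 septin genes none had a called wave. Of 11 genes of the septation initiation network, the kinase cascade that triggers constriction, 2 did, *etd1* (2.63) and *sid2* (1.16). Of 8 cell separation genes, which degrade the septum, all 8 did, among them *adg1* (6.09), *eng1* (5.04) and *adg2* (4.53). Of 4 mitotic regulators, *fkh2* (1.88) and the polo kinase gene *plo1* (1.62) did.

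At 100 and 120 min in Nrm1-SA, where *cdc15* and *myo3* were raised, 6 of the 19 other ring and node genes were higher, beside 11.5% of all features, and none lower, beside 10.2%, among them *fhn1* (0.75), *pxl1* (0.56), *fic1* (0.35) and the kinase gene *pom1* (0.21). So were 3 of 4 mitotic regulators, *plo1* (0.82), *fkh2* (0.61) and *sep1* (0.17), 7 of 8 cell separation genes, among them *eng1* (1.13) and *adg2* (0.68), and 3 of 11 septation initiation genes, *etd1* (0.82), *sid2* (0.29) and *cdc11* (0.23). Of the actin genes 7 of 21 were higher, with *adf1* (0.21), *fim1* (0.19), *act1* (0.19) and *cdc3* (0.18), and of the septins 2 of 4, *spn2* (0.25) and *spn1* (0.16). The medians were 0.15 for the other ring genes, 0.39 for the regulators and 0.61 for cell separation, beside 0.00 over all features. At 220 min in Nrm1-SA, where 9.73% of all features were higher and 8.92% lower, 7 of 19 other ring genes were higher, among them *fhn1* (0.88), *myo51* (0.48), *pxl1* (0.42) and *cdr2* (0.42). So were 2 of 4 regulators, *plo1* (0.81) and *fkh2* (0.42), 4 of 11 septation initiation genes, led by *cdc16* (0.67) and *etd1* (0.53), 1 of 21 actin genes, *for3* (0.28), 1 of 4 septins, *spn1* (0.21), and 1 of 8 cell separation genes, and none of these lists had a lower gene. At 220 min in Nrm1-SD, where 2.75% of all features were higher and 4.35% lower, 2 of 19 other ring genes (*pxl1* at 0.39, *fic1* at 0.37), 2 of 4 regulators (*fkh2* at 0.49, *plo1* at 0.38), 3 of 11 septation initiation genes (*etd1* at 0.52, *sid2* and *cdc16* at 0.38) and 2 of 8 cell separation genes (among them *mid2* at 0.35) were higher.

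Stress and mating genes moved with the same samples. Of the 8 heat shock genes 5 were higher and 1 lower in Nrm1-SA at 100 and 120 min, with *hsp16* at 2.49, *ssa1* at 2.44 and *hsp9* at 1.39. Their summed level was 11852 to 14546 in the 4 Nrm1-SA libraries, 9819 to 10818 in Nrm1 and 9583 to 10919 in Nrm1-SD. At 220 min 6 of the 8 were higher and 1 lower in Nrm1-SA, with *hsp16* at 2.32, and none was called in Nrm1-SD. The sums were then 24701 and 25158 in Nrm1-SA, 17590 and 18461 in Nrm1 and 16775 and 27786 in Nrm1-SD. Of 6 tested genes of mating and starved cells 4 were higher in Nrm1-SA at 100 and 120 min, *mfm2* (1.34), *mfm1* (1.25), *mei2* (0.69) and *ste11* (0.64), none was lower, and the 7 genes of that list summed to 1013 to 1316 against 608 to 669 in Nrm1 and 435 to 640 in Nrm1-SD. At 220 min 3 of the 6 were higher in Nrm1-SA, *mfm1* (1.45), *mei2* (0.99) and *mfm2* (0.89), and the list summed to 2166 and 2209 against 1243 and 1467 in Nrm1 and 717 and 801 in Nrm1-SD. None of these genes was at 0 in all libraries of a group. The part of heat shock, starvation or mating genes in the ring gene differences was not tested.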

How the data were processed

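Each of the 78 deposited columns holds a signal on the scale of reads: the count of a feature over its library's DESeq2 size factor, as made by the authors. Per the paper, reads were aligned with STAR, counted with HTSeq and normalized with DESeq2, and the labels also name FastQC, Trimmomatic and ASM294v2; the strand setting is not given in the sources used here. Biological duplicates were not pooled. Whole reads were recovered from the columns (100% of values whole within 0.01), and size factors recomputed over 7775 features matched the deposited scale to within 7.4e-08%.

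Strains and times were compared in R 4.3.3 by limma 3.58.1 with its trend option, on the log2 of the normalized count plus 1, so fold changes of low genes are understated. It covered 7431 features with a mean of at least 10, all 10 ring genes among them, with a mean per condition, 1 spread from 77 libraries and Benjamini-Hochberg adjustment at 0.1 over all features. Time points of 1 culture counted as independent, and cultures were therefore also compared by exact permutation tests. Values per culture kept the 140 min libraries of Nrm1-SA apart. P-values of the comparisons between conditions measure the spread between these replicates. The wave tests used the time-course libraries alone, and their spread also holds the misfit of the fitted curve. Alternatives were edgeR 4.0.16, DESeq2 1.42.0, other filters, pseudocount, threshold, windows, periods, a culture effect and leaving out each culture.

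Of 12683 features, 228 were at 0 throughout, and 12583 were matched to the ASM294v3 annotation. The table was made with another annotation release, so coordinates are given from RefSeq alone. All 10 ring genes were named in each comparison. List genes were named if called and moved the same way in both cultures, up to 4 per list by size, except for a gene that is not reported here, and the genes most alike to *cdc15* and *myo3* were the 5 protein-coding ones with the highest correlation over condition means, at a mean of at least 50. The lists were other ring and node genes, actin cables and patches, cell separation, mitotic regulators, septins, septation initiation, heat shock, and mating or starved cells. The ring genes and lists were chosen with earlier results of these data known, and the comparisons at 100 and 120 min and at 220 min after the values were seen. The tests were tried on simulated counts first. Python 3.11.15, pandas 2.3.3, numpy 2.4.6, scipy 1.17.1 and matplotlib 3.10.9 were used.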

Additional observations from a re-analysis of the deposited data

Results flagged for a closer look

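The time courses of 3 ring genes differed between strains by a test of the difference itself. The early window against the trough was smaller in Nrm1-SA than in Nrm1 for *cdc15* (-0.54 on the log2 scale) and *myo3* (-0.47), but neither was called without Nrm1 replicate 2 or with 140 and 160 min as the early window. The shape over all times differed between Nrm1-SA and Nrm1 for *cdc15* (F = 7.66), *myo3* (F = 6.66) and *imp2* (F = 3.12), and between Nrm1-SD and Nrm1 for *cdc15* (F = 6.46), *myo3* (F = 4.39) and *imp2* (F = 6.33), where none of the 3 was called without Nrm1 replicate 2. With 2 samples per condition, no single library could be tested for standing apart from its group.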

How the results depend on the processing

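Of the ring gene counts, 290 recomputed values were within 1.5 times the main count and 29 were not. Counts over all features in the alternative runs are given below for some runs only, so the ring gene counts here do not set these genes apart. In asynchronous Nrm1-SA 1 gene was called by edgeR, by DESeq2, without a filter and at a threshold of 0.05, 0 with only the compared libraries, and 0 to 1 without a culture. At 0 min 1 gene was called in each mutant with only the compared libraries, and 0 to 1 in Nrm1-SA without a culture. The early window against the trough gave 0 in Nrm1-SA with 140 and 160 min as the early window and 0 to 3 without a culture, and in Nrm1-SD 2 with 40 and 60 min. The time-course mean in Nrm1-SD gave 1 to 2 without a culture, and the shape test in Nrm1-SD 0 to 4. At 100 and 120 min in Nrm1-SD 1 gene was called by edgeR and with a trough of 120 and 140 min, and 0 to 2 without a culture. At 220 min in Nrm1-SD 1 to 3 were called without a culture. Without a minimum size the wave was called for 9 genes in Nrm1, for 5 in Nrm1-SA and for 9 in the Nrm1-SD strain, with the share of all features not given here.

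Direction turned for single genes in the early window of Nrm1. With 40 and 60 min *cdc4* was at 0.15, and with a trough of 120 and 140 min *cdc4* was at 0.070 and *rlc1* at 0.17. With 140 and 160 min *imp2* was at -0.038, *mid1* at 0.17, *cdc12* at 0.088 and *rng2* at 0.15. The cause was not tested.

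Replicate numbers did not pair the samples: same-numbered libraries of the mutants and Nrm1 correlated at -0.11 to 0.23 in their deviations, and 7 of 26 values were over 0.1. With the replicate block, 1 ring gene (*mid1*) was called in the early window of Nrm1-SD and 1 (*mid1*) at 100 and 120 min in Nrm1-SD, where 0 were called without it, and the other counts stayed within 1.5 times. Depth did not limit the 10 genes, but 2 cultures per strain cannot pass an exact test.

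Counts over all features, and with them the shares given beside the ring genes, moved more. In asynchronous Nrm1-SA 119 features were called with only the compared libraries (1027), 245 without Nrm1 replicate 2 and 277 without Nrm1-SA replicate 2. The early window in Nrm1-SA gave 133 to 468 without a culture and 75 with 140 and 160 min (656). By edgeR and DESeq2, 648 and 508 features were called in asynchronous Nrm1-SA (limma 1027), 51 and 43 in asynchronous Nrm1-SD (178) and 323 and 250 at 220 min in Nrm1-SD (527). At 0 min in Nrm1-SD DESeq2 called 92 (151). With culture as a random effect the time-course mean in Nrm1-SD gave 440 (1103). Without a filter or with one at a mean of 50 the wave was called for 993 and 359 features in Nrm1 (616), and the shape test in Nrm1-SD gave 63 to 1448 without a culture (224).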

Other observations

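The heavy chain genes *myo3* and *myo2* crossed in level during the Nrm1 time course. Gene *myo3* stood at 1825 ± 39.3 normalized counts (SD, n = 2) at 60 min and 303 ± 14.6 at 120 min, and *myo2* at 470 ± 41.9 and 590 ± 24.1. These counts are not divided by transcript length. Per kb of annotated transcript, the ratio of *myo3* to *myo2* was 3.03 at 60 min and 0.40 at 120 min. The light chain genes *cdc4* and *rlc1* had fitted peak-to-trough differences of 0.75 and 0.36 on the log2 scale.

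Asynchronous Nrm1 libraries, from growth at 25 °C, held 79531 and 83561 normalized counts in the 8 heat shock genes, against 9819 to 10818 at 100 and 120 min after return to that temperature. The cause was not tested.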
